A study of Mus musculus with 8 samples.

Results

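The imprinted growth genes are 10 genes of brown adipose tissue that were followed by name: H19, Mest, Peg3, Plagl1, Dlk1, Meg3, Cdkn1c, Nnat, Ndn and Peg10. Every non-control probe that carries one of these names on the array was taken, which gave 22 probes, and 18 of them, for 9 of the 10 genes, passed the filter on dim probes. The array measured 21742 genes under the same filter. Both Peg10 probes failed it.

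RNA of brown adipose tissue from Prdm16 knockout mice was set against RNA of wild-type mice of the same age on 8 Agilent arrays with a Cy3 and a Cy5 channel. The groups were 6-week-old knockout and wild-type mice (4 arrays) and 11-month-old knockout and wild-type mice (4 arrays), and knockout RNA was labelled with Cy5 on 2 arrays of each age and with Cy3 on the other two. Prdm16 encodes a zinc-finger regulator of brown fat identity. The sources used here do not give the deleted segment of Prdm16, any Cre driver, the strain, the sex or the number of animals behind each RNA, and the arrays are described as biological replicates. The ages were run as separate batches on 2 separate slides, so age, batch and slide cannot be told apart.

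Imprinted genes are transcribed mainly from the copy inherited from one parent, because the other copy is silenced by marks laid down in the germ line. Many of them act on fetal and early postnatal growth, and their levels usually fall after weaning. In adipose tissue DLK1 is known as a brake on preadipocyte differentiation, MEST as a correlate of adipocyte enlargement, and necdin as a growth suppressor that restrains adipogenesis. Among the members, H19, Meg3 and Cdkn1c are expressed from the maternal copy and the other 7 from the paternal copy.

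RefSeq promoter sequences (build GRCm38.p6) were at hand for 7 of the 10 members. The 250 bases before the annotated start are shown for the members with the clearest differences, since CpG dinucleotides, in capitals here, carry the methylation on which imprinting depends; methylation itself was not measured.
Dlk1: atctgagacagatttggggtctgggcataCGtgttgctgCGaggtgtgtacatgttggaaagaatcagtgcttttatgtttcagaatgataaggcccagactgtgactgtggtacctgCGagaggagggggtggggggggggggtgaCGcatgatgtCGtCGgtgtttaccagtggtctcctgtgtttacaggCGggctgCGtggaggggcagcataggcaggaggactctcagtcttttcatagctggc
Ndn: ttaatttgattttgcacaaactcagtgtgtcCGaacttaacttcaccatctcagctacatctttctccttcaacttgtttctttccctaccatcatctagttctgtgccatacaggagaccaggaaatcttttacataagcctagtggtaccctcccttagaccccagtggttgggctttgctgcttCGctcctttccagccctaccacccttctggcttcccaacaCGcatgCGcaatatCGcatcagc
Plagl1: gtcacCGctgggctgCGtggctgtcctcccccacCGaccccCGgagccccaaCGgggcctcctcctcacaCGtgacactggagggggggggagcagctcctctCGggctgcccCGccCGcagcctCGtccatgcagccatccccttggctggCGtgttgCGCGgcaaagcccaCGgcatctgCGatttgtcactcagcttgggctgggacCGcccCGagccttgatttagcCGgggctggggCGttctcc
Nnat: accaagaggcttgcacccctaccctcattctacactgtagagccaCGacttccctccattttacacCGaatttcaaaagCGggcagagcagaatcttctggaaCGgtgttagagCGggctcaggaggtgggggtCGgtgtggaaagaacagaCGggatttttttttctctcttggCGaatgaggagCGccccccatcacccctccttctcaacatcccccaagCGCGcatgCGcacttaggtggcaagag
They lie at chr12:109452573-109452822 (Dlk1), chr7:62348027-62348276 (Ndn), chr10:13090582-13090831 (Plagl1) and chr2:157559828-157560077 (Nnat), all on the plus strand. Plagl1 had 19 CpGs, a number that 19.7% of all 32851 promoters of this length reached or passed. Nnat had 12 (33.5%), Dlk1 had 8 (43%) and Ndn had 5 (55.6%), against a median of 6 over all promoters. The palindrome GGGGCCCC, described for the protein of Plagl1, occurred in 1 of the 10 annotated member promoters, that of Peg3, and in 0.889% of all promoters.

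At 6 weeks 4 of the 18 member probes were called lower in knockout tissue and 0 were called higher. The 18 as a set did not lean low. Their median log2 ratio of knockout over wild type was -0.02 against 0.0014 over all probes, and with the brightest probe of each gene it was 0.0018. A probe was called when its adjusted p in limma (Benjamini-Hochberg over all 26853 kept probes) was below 0.05, and 7.05% of all probes were called lower and 9.56% higher. At 11 months 9 of the 18 were higher and 2 lower (median 0.23), where 17.3% of all probes were called higher and 16.4% lower. The log2 ratio was higher at 11 months than at 6 weeks for 7 probes, which include the Dlk1 probes that were low at 6 weeks and near 0 at 11 months, and lower for 0, against 7.87% and 9.7% of all probes. With one probe a gene, the brightest, 0 of 9 genes were higher and 3 lower at 6 weeks (9.26% and 7.13% of all genes), and 4 were higher and 1 lower at 11 months (17.8% and 16.7%). The members were chosen with earlier results of these data known, so counts beside shares are a description and not a test.

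**Figure D1:**
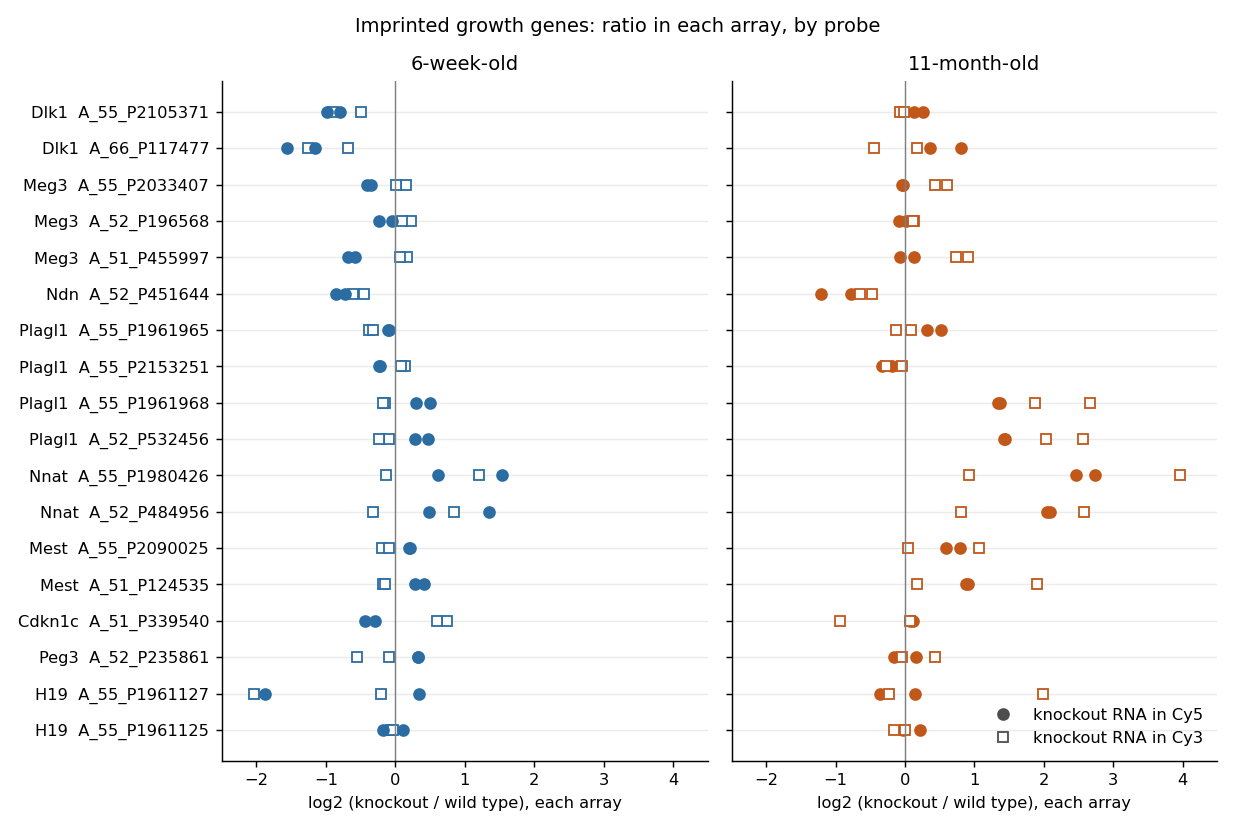
Log2 ratio of knockout over wild type on the x axis for each kept probe of the imprinted growth genes (rows), one point per array, at 6 weeks (left) and 11 months (right). Circles are arrays with knockout RNA in Cy5 and squares those with it in Cy3; both Dlk1 probes lie left of 0 on all 4 arrays at 6 weeks only, while the Meg3 points part by dye.

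Dlk1 encodes a transmembrane protein with EGF-like repeats that is abundant in preadipocytes and lost as they mature. It was lower in knockout tissue at 6 weeks and not at 11 months, by both of its probes. At probe A_66_P117477 (mm9 chr12:110698721-110698781, plus strand) the log2 ratios were -1.26, -0.68, -1.16 and -1.56 in the 6-week arrays 1 to 4. All 4 were below 0, and the highest knockout level (log2 10.05) lay under the lowest wild-type level (10.15). At 11 months the same probe gave 0.35, 0.80, -0.45 and 0.17, with 3 arrays above 0 and overlapping levels. The SE of a fitted log2 ratio came from one model of all 8 arrays, with n = 4 at each age. The fitted log2 ratio was -1.17 ± 0.20 (SE) at 6 weeks, 2.24-fold lower, with a limma adjusted p of 0.00995. At 11 months it was 0.22 ± 0.20 (adjusted p = 0.438), and the difference between the ages was 1.38 ± 0.28 (adjusted p = 0.0159). The second probe, A_55_P2105371 (chr12:110698502-110698561), lay 219 bases upstream and shared no run of over 7 bases with the first. It gave -0.79 ± 0.093 at 6 weeks (1.73-fold lower, adjusted p = 0.00302), 0.07 ± 0.093 at 11 months and a difference of 0.86 ± 0.13 (adjusted p = 0.00601). In bulk tissue fewer cells of a type and less RNA per cell cannot be told apart. At 6 weeks 0 of 19 preadipocyte and stromal markers were called, with a median log2 ratio of 0.0017. Whether these markers follow the cells that express Dlk1 was not tested. Centring each array on its median in place of loess ended the 6-week call of A_66_P117477 (-1.02, adjusted p = 0.0799) and left that of A_55_P2105371.

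The levels behind these ratios are given for both ages. The Dlk1 level at A_66_P117477 was log2 10.4 ± 0.31 (SD, n = 4) in 6-week wild type and 9.27 ± 0.62 in 6-week knockout. It was 9.70 ± 0.25 in 11-month wild type and 9.92 ± 0.41 in 11-month knockout. These levels across ages also differ by slide and batch, and no test was made of them.

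Meg3 is the maternally expressed long noncoding RNA that lies next to Dlk1 in the same imprinted domain. At its brightest probe it was called lower at 6 weeks, by less than Dlk1 in log2 ratio, and higher at 11 months. At A_51_P455997 (mm9 chr12:110809678-110809737) the fitted log2 ratio was -0.25 ± 0.059 at 6 weeks (1.19-fold lower, adjusted p = 0.027) and 0.42 ± 0.059 at 11 months (1.34-fold higher, adjusted p = 0.00134). The difference was 0.68 ± 0.084 (adjusted p = 0.00312). The raw ratios were 0.17, 0.07, -0.57 and -0.68 at 6 weeks, where only the arrays with knockout RNA in Cy5 were below 0. They were -0.08, 0.12, 0.91 and 0.73 at 11 months, where the arrays with knockout RNA in Cy3 were the high ones. The dye term of this probe was -0.39 ± 0.042 (adjusted p = 0.0104), so the call rests on the dye correction: without a dye term the adjusted p was 0.447 at 6 weeks and 0.145 at 11 months. Leaving out any 6-week array also ended the 6-week call, with adjusted p from 0.0681 to 0.102. The 6-week call stood in 10 of 20 alternative settings, with log2 ratios from -0.29 to -0.07 and limma adjusted p up to 0.758. The 11-month call stood in 19 of 20.

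A second Meg3 probe, A_55_P2033407, repeated the direction at -0.14 ± 0.055 (adjusted p = 0.113) and 0.24 ± 0.055 (adjusted p = 0.0129). Its difference was 0.38 ± 0.078 (adjusted p = 0.0165), and its dye term of -0.25 was also called (adjusted p = 0.0213). The third, A_52_P196568, was dim, with 13 of 16 channel measurements well above background. It gave 0.0100 and 0.04 and passed no test. The other measured genes of this domain were Begain at -0.07 and 0.15 (neither called), Mirg, a microRNA host transcript, at -0.03 and 0.56 (adjusted p = 0.00432 at 11 months), and Dio3, the thyroid hormone-inactivating deiodinase, at -0.16 and -0.06 (neither called). Rtl1 was too dim to keep, and Rian was not found by name.

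Ndn, which encodes the MAGE-family protein necdin, was the 1 member lower at both ages. Its single probe A_52_P451644 (mm9 chr7:69493847-69493906, plus strand) gave log2 ratios of -0.61, -0.45, -0.85 and -0.73 at 6 weeks. At 11 months they were -0.77, -1.22, -0.65 and -0.48. All 8 arrays were below 0, and at each age every knockout level lay under every wild-type level. The mean level fell from 9.91 ± 0.17 (SD, n = 4) in wild type to 9.25 ± 0.067 in knockout at 6 weeks, and from 9.93 ± 0.21 to 9.15 ± 0.33 at 11 months. The fitted ratios were -0.66 ± 0.082 (1.58-fold lower, adjusted p = 0.00346) and -0.78 ± 0.082 (1.72-fold lower, adjusted p = 0.00036). The difference between the ages was -0.12 ± 0.12 (adjusted p = 0.515). Median centring gave -0.51 with an adjusted p of 0.0536 at 6 weeks.

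Neighbours of Ndn in the Snrpn-Ndn domain did not share one direction. Of 6 measured, 2 were higher and 1 lower at 6 weeks, and 1 was higher and 2 lower at 11 months. Magel2, another MAGE-family gene, was -0.53 ± 0.11 at 6 weeks (adjusted p = 0.0177) and -0.15 at 11 months (adjusted p = 0.316). Snrpn, a splicing protein gene, was -0.26 (adjusted p = 0.068) and -0.78 ± 0.082 (adjusted p = 0.000343). Peg12 was 0.42 (adjusted p = 0.0256) and then -0.54 (adjusted p = 0.00413), so it changed sign between the ages. Atp10a, a lipid flippase gene, was higher at both, 1.05 (adjusted p = 0.00385) and 0.58 (adjusted p = 0.013).

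**Figure D2:**
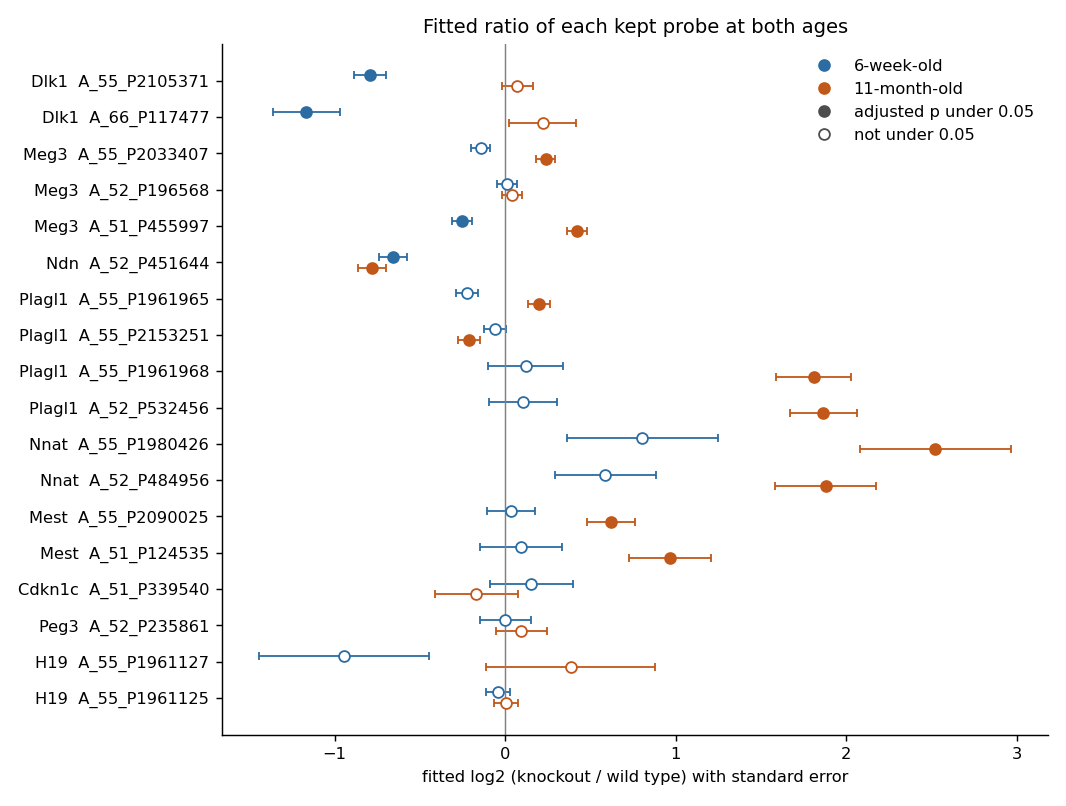
Fitted log2 ratio of knockout over wild type with its standard error (x axis) for each kept probe (rows), blue at 6 weeks and orange at 11 months; filled points passed an adjusted p of 0.05. Ndn is below 0 at both ages, Dlk1 at 6 weeks only, and the Nnat probes and a pair of the 4 Plagl1 probes lie beyond 1.8 at 11 months.

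Plagl1 encodes the zinc-finger factor ZAC1, a regulator of a network of imprinted genes that slows the cell cycle. It was 3.64-fold higher in knockout tissue at 11 months at its brightest probe and did not differ detectably at 6 weeks. At A_52_P532456 (mm9 chr10:12851280-12851339, plus strand) the log2 ratios were -0.09, -0.24, 0.47 and 0.28 at 6 weeks, on both sides of 0. Only the 6-week arrays with knockout RNA in Cy3 were below 0. At 11 months the log2 ratios were 1.44, 1.42, 2.03 and 2.57, higher on the arrays with knockout RNA in Cy3. At that age every knockout level (10.11 to 11.1) lay above every wild-type level (8.48 to 9.10). The fitted values were 0.11 ± 0.20 (adjusted p = 0.753) and 1.86 ± 0.20 (adjusted p = 0.000372), with a difference of 1.76 ± 0.28 (adjusted p = 0.00688). Probe A_55_P1961968, which starts 448 bases upstream, gave 0.12 ± 0.22, then 1.81 ± 0.22 (3.50-fold higher, adjusted p = 0.000691) and a difference of 1.69 ± 0.31 (adjusted p = 0.0114). These 2 probes of 60 bases share a run of 26 bases and so are not independent, although their annotated intervals do not overlap. The reason for this mismatch was not tested. The shared run is shown because it bears on how far they count as separate evidence.
Plagl1 shared run: atctcctaacctttgatgactctgta

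The other two Plagl1 probes, further upstream, did not show this rise. A_55_P1961965 (chr10:12848421-12848480) gave -0.22 ± 0.064 (adjusted p = 0.052) and 0.20 ± 0.064 (1.15-fold higher, adjusted p = 0.0469). Its difference was 0.42 ± 0.091 (adjusted p = 0.0197). A_55_P2153251 (chr10:12848851-12848910) gave -0.06 and -0.21 ± 0.064 (1.16-fold lower, adjusted p = 0.0373), opposite in sign to the other 3 at 11 months. All 4 probes were well above background in all 16 channel measurements, and the sources used here do not name the exon or UTR that each one meets. The 11-month calls of A_55_P1961965 and A_55_P2153251 stood in 6 and 10 of the 20 alternative settings tried, and those of the 2 downstream probes in all 20, with log2 ratios from 1.501 to 2.37.

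Nnat encodes neuronatin, a small membrane proteolipid of the endoplasmic reticulum found in neuroendocrine and adipose cells. It was higher in knockout tissue at 11 months by both probes. At A_55_P1980426 (mm9 chr2:157387696-157387755, plus strand) the log2 ratios were 1.20, -0.13, 0.62 and 1.53 at 6 weeks. At 11 months they were 2.73, 2.46, 0.93 and 3.96. Array 4 was the highest and array 3 the lowest, and knockout levels (10.2 to 14.0) did not overlap wild-type levels (9.25 to 10.03). The fitted ratio was 0.80 ± 0.44 at 6 weeks (adjusted p = 0.251) and 2.52 ± 0.44 at 11 months (5.74-fold higher, adjusted p = 0.00379). A_52_P484956, 282 bases downstream, gave 0.59 ± 0.30 (adjusted p = 0.213) and 1.88 ± 0.30 (3.68-fold higher, adjusted p = 0.00232), and its levels overlapped at 11 months (knockout 10.56 to 14.2, wild type 9.76 to 11.7). The differences between the ages, 1.72 ± 0.63 and 1.29 ± 0.42, did not pass (adjusted p = 0.0998 and 0.0725). Without 11-month array 3, Nnat A_55_P1980426 11 months minus 6 weeks was 2.29 (adjusted p = 0.0306) and Nnat A_52_P484956 11 months minus 6 weeks was 1.62 (adjusted p = 0.0369), both past the threshold.

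The wild-type level of Nnat was also higher on the 11-month slide, at 9.63 ± 0.33 (SD, n = 4) against 7.80 ± 0.30 at 6 weeks for A_55_P1980426. Blcap, the gene in whose intron Nnat lies, was -0.18 (adjusted p = 0.314) and 0.44 ± 0.11 (1.35-fold higher, adjusted p = 0.0191).

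Mest encodes an endoplasmic reticulum hydrolase-like protein that rises in fat depots during expansion. It was higher in knockout tissue at 11 months by both kept probes. At A_51_P124535 (mm9 chr6:30698279-30698338, 10 spots per array) the log2 ratios were -0.18, -0.15, 0.28 and 0.42 at 6 weeks. Only the 6-week arrays with knockout RNA in Cy3 were below 0. At 11 months the log2 ratios were 0.88, 0.91, 0.17 and 1.90. All 4 were above 0, with array 3 the lowest and array 4 the highest, as for Nnat, and the levels of the genotypes overlapped. The fitted values were 0.09 ± 0.24 (adjusted p = 0.823) and 0.96 ± 0.24 (1.95-fold higher, adjusted p = 0.0169). A_55_P2090025 gave 0.03 ± 0.14 and 0.62 ± 0.14 (1.54-fold higher, adjusted p = 0.0121), with a wild-type signal well above background on 2 of the 4 11-month arrays. Neither difference between the ages passed (adjusted p = 0.117 and 0.0832). Without 11-month array 2 both 11-month calls ended (adjusted p = 0.0538 and 0.0563), and without array 4 Mest A_51_P124535 at 11 months was 0.55 and Mest A_55_P2090025 at 11 months 0.40, both still called. Over the 20 alternative settings the 11-month values ran from 0.55 to 2.11 and from 0.38 to 1.71, the highest with the scanner software's own log ratio. The third probe, A_55_P2151868, was well above background in 1 of 16 channel measurements and was not tested.

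**Figure D3:**
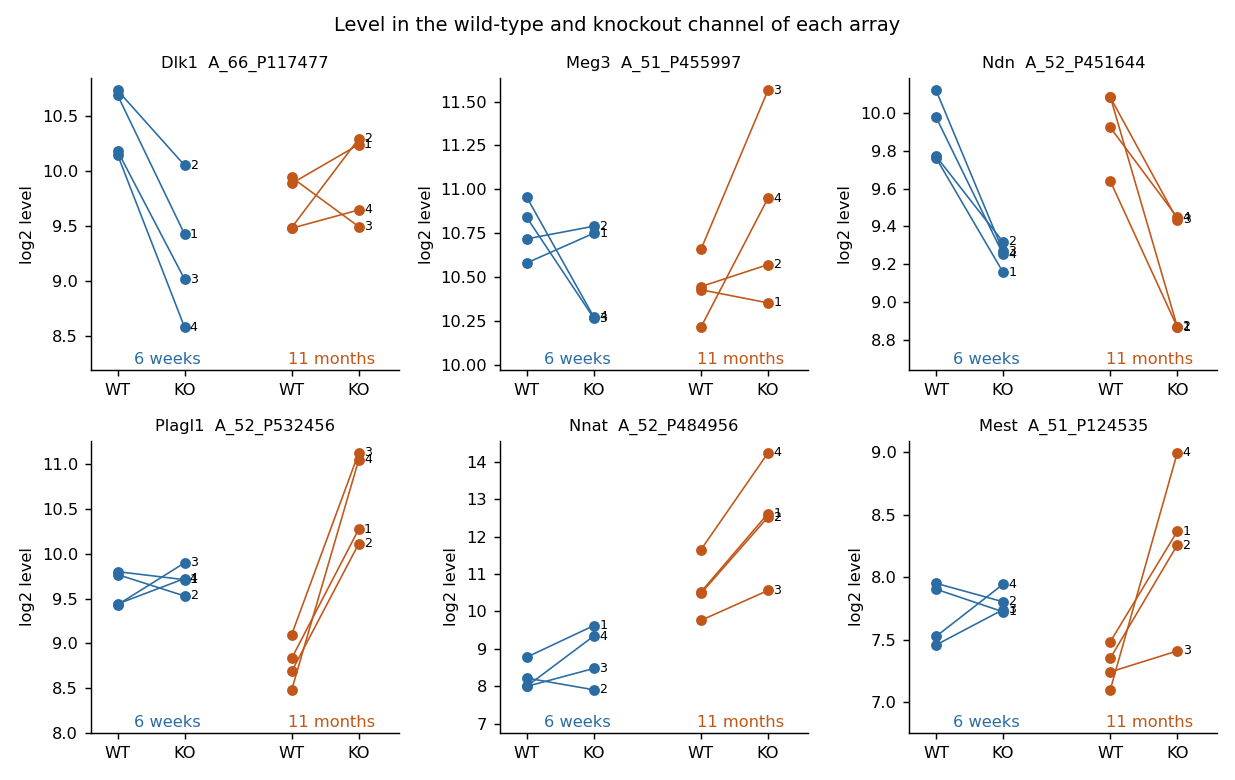
Log2 level after normalization (y axis) of the brightest probe of 6 members in the wild-type (WT) and knockout (KO) channel of each array, blue at 6 weeks and orange at 11 months; a line joins the channels of one array, and the number is the replicate. Ndn falls in all 8 arrays, Dlk1 falls in the 4 arrays at 6 weeks, and Plagl1 and Nnat rise in the 4 arrays at 11 months.

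The remaining measured members passed no test. Cdkn1c, which encodes the cyclin-dependent kinase inhibitor p57, gave log2 ratios of 0.75, 0.60, -0.44 and -0.30 at 6 weeks. The high arrays were those with knockout RNA in Cy3. At 11 months it gave 0.08, 0.11, -0.94 and 0.07, with array 3 alone far below 0. The fitted values were 0.15 ± 0.24 (adjusted p = 0.705) and -0.17 ± 0.24 (adjusted p = 0.634). Peg3, a large zinc-finger gene, gave 0.0018 ± 0.15 (adjusted p = 0.995) and 0.09 ± 0.15 (adjusted p = 0.665) at A_52_P235861. Its second probe, A_55_P2163319, was well above background in 2 of 16 channel measurements. The Peg10 probes, for a retrotransposon-derived gene, were so in 3 and 0 of 16. No level is given for them.

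H19, the maternally expressed long noncoding RNA beside Igf2, varied widely between arrays at one of its probes and little at the other. At A_55_P1961127 (mm9 chr7:149761492-149761551, minus strand) the log2 ratios were -0.20, -2.03, 0.33 and -1.88 at 6 weeks. At 11 months they were 0.14, -0.36, -0.23 and 1.99. The fitted values, -0.94 ± 0.50 (adjusted p = 0.23) and 0.38 ± 0.50 (adjusted p = 0.594), were not called. H19 is also abundant in skeletal muscle, and the median ratio of 34 skeletal muscle genes in the same arrays was -0.18, -2.82, 1.51 and -2.22 at 6 weeks. At 11 months it was -0.29, -0.94, -0.42 and 1.62. The same 3 arrays, 6-week arrays 2 and 4 and 11-month array 4, were far from 0 in both, while 6-week array 3 was far from 0 for the muscle genes and at 0.33 for H19. Without the 3 arrays H19 was 0.07 and -0.20, and with the muscle median as a covariate it was -0.31 and 0.39 (alternatives chosen after seeing the data). The second probe, A_55_P1961125, gave -0.04 ± 0.072 and 0.0059 ± 0.072 and did not follow the muscle genes. Its mean log2 levels were low, 7.04 to 7.12 over the groups, against 8.40 to 10.7 at the first probe. At so low a level a flat ratio says little. Igf2, the growth factor gene of the same domain, was -0.06 and 0.03 with neither called.

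**Figure D4:**
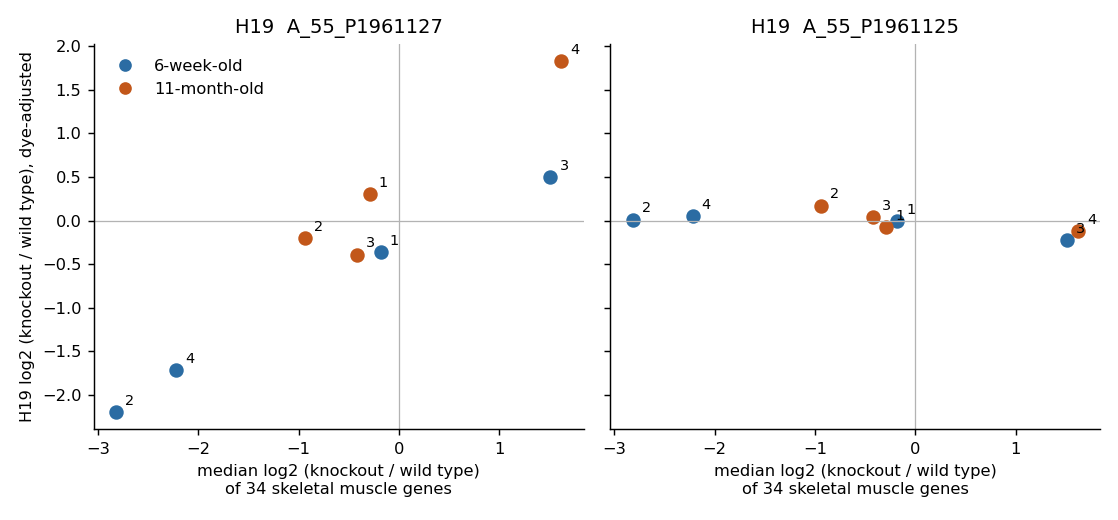
Dye-adjusted log2 ratio of the 2 H19 probes (y axis) against the median log2 ratio of 34 skeletal muscle genes (x axis), one point per array, numbered by replicate. The left probe is low in 6-week arrays 2 and 4 and high in 11-month array 4, as the muscle genes are; the right probe has its lowest value, -0.22, in 6-week array 3.

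The same muscle measure bears on the other members as follows. With the muscle median as a covariate, the calls of Dlk1, Ndn, Nnat and Mest at their age stood, as did those of the 2 downstream Plagl1 probes at 11 months. The call of Meg3 A_51_P455997 at 6 weeks was lost (adjusted p = 0.0786), as was that of Plagl1 A_55_P1961965 at 11 months (adjusted p = 0.0713). With the 3 arrays left out, Dlk1 A_66_P117477 and Ndn kept their size at 6 weeks (-1.21 and -0.73) but missed the threshold (adjusted p = 0.0531 and 0.0565). Of the 7 differences between ages, that of Dlk1 A_55_P2105371 alone then passed (0.91, adjusted p = 0.0366), with Plagl1 A_52_P532456 at 1.46 (adjusted p = 0.0680) and Dlk1 A_66_P117477 at 1.34 (adjusted p = 0.0743). Of the 34 muscle genes 0 were called at either age.

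Marker transcripts of several cell types differed at 11 months, where 17.8% of all genes were called higher and 16.7% lower. At 6 weeks these shares were 9.26% and 7.13%. Of 19 preadipocyte and stromal markers 12 were higher in 11-month knockout tissue (median 0.68), among them the collagen genes Col3a1 (1.90) and Col1a1 (1.72). Their mean log2 level was 11.5 to 12.4 in knockout and 10.9 to 11.0 in wild type, and array 3 had the largest median ratio (1.12) where Nnat and Mest had their smallest. Of 14 macrophage and myeloid markers 9 were higher (median 0.53; knockout 9.44 to 10.2, wild type 9.05 to 9.41), Cd14 by 1.05. Of 12 adipocyte markers 9 were higher (median 0.84), after 7 at 6 weeks (median 0.42), with Cfd at 1.40 and 4.54. Of 12 brown adipocyte markers 9 were lower (median -2.25; knockout 11.5 to 12.3, wild type 13.9 to 14.1), and 1 was lower at 6 weeks. The thermogenic gene Ucp1 was 0.13 at 6 weeks (adjusted p = 0.864) and -4.05 at 11 months. Smooth muscle and pericyte markers were higher in 6 of 9 (median 0.36), after 1 higher and 2 lower at 6 weeks. Endothelial markers were lower in 3 of 12 at 6 weeks (median -0.24). At 11 months 2 of the 12 were higher (median 0.12), near the share over all genes. Of 11 nerve and Schwann cell markers 1 was higher and 1 lower at 6 weeks, and 1 higher and 2 lower at 11 months. The part of these cell types in the members' differences was not tested.

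Across 64 other imprinted genes, 48 were measured. At 6 weeks 6 were higher and 2 lower (median -0.05), and at 11 months 14 were higher and 7 lower (median 0.02). Over all genes 9.26% were higher and 7.13% lower at 6 weeks, and 17.8% and 16.7% at 11 months. Gnas, which encodes a G-protein subunit of the cAMP pathway, was the most changed of the 48. By its brightest probe it was -1.16 ± 0.17 (2.23-fold lower, adjusted p = 0.00629) and -2.06 ± 0.17 (4.16-fold lower, adjusted p = 0.00013). Which transcript of Gnas this probe reads was not examined. Grb10, an adaptor that dampens insulin and IGF receptor signals, was -0.07 and 0.56 ± 0.097 (adjusted p = 0.00369). Igf2r, the receptor that clears IGF2, was -0.20 and -0.32 (adjusted p = 0.276 and 0.0722). In the Peg10 and Mest domains 4 of 6 were higher at 11 months. Sgce, which encodes a sarcoglycan and is the neighbour of Peg10, was 0.60 ± 0.080 (adjusted p = 0.00435) and 0.84 ± 0.080 (adjusted p = 0.000224). Copg2, the gene next to Mest, was 0.19 (adjusted p = 0.079) and 0.32 (adjusted p = 0.0064).

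Of the 12 genes measured in the H19 and Kcnq1ot1 domains 1 was higher at 6 weeks, Tnfrsf23 (0.33, adjusted p = 0.0446). At 11 months 2 were higher, the transporter gene Slc22a18 (0.88 ± 0.095, adjusted p = 0.000401) and Kcnq1ot1, the noncoding RNA that silences the domain of Cdkn1c (0.32, adjusted p = 0.0269), and 2 were lower. Phlda2, a placental growth gene, was -0.05 and -0.09 with neither called. In the Peg3 domain 0 of 4 genes were measured, Usp29 and Zim1 among those too dim. The extracellular matrix gene Dcn was -0.07 and 0.83 (adjusted p = 0.0278), Nap1l5 was -0.39 and -0.61 (adjusted p = 0.0345), Mcts2 was 0.50 and -0.34 (adjusted p = 0.0187 and 0.0379), and H13, its host gene, was 0.23 and -0.14 (adjusted p = 0.0462 and 0.142).

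Of 26 growth and adipogenesis partners 5 were higher and 1 lower at 6 weeks, and 8 were higher and 5 lower at 11 months, beside the same shares over all genes. Ccnd2, the D-type cyclin, was 2.43 ± 0.095 and 3.23 ± 0.095 (adjusted p = 8.1e-05 and 6.8e-06). Igf1, the growth factor, was 2.37 ± 0.35 and 3.35 ± 0.35 (adjusted p = 0.00617 and 0.000334). Irs1, the insulin receptor substrate, was 1.18 and 1.85, and Igfbp4, an IGF-binding protein gene, was 0.58 and 2.20, with all 4 values called. Cdk4 was lower at both ages (-0.41 and -0.36) and the Wnt coreceptor gene Lrp6 higher at both (0.40 and 0.44). Cdkn1a, which encodes the cell cycle inhibitor p21, was 0.42 (adjusted p = 0.17) and -0.90 ± 0.19 (adjusted p = 0.00879). Cebpa, an adipogenic factor gene, was -0.25 (adjusted p = 0.119) and 0.89 ± 0.10 (adjusted p = 0.000486).

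The genes whose dye-adjusted ratios ran closest to a called member over the 8 arrays are given by Pearson r, as a description over arrays of 2 slides. They were Pld2 (r = 0.997) and Naaa (0.996) for Plagl1, Parva (0.995) and Ifi47 (0.993) for Dlk1, and Fam111a and Trp53i13 (both 0.995) for Meg3. For Mest they were Tsc22d4 and Tnfaip8l1 (both 0.991), for Nnat Pgm2l1 (0.987) and Slc36a4 (0.986), and for Ndn Fbxl18 (0.965) and Cpxm2 (0.960). Over 0.95 lay 286 genes for Plagl1 and 3 for Ndn. Pld2 was 0.66 and Naaa 1.28 at 11 months, while Fbxl18 was at most 0.05 from 0 at both ages, so a high r here says nothing of size. These genes were picked as the highest r among all genes measured, over 8 arrays. Whether chance alone gives such r was not tested.

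The labels were checked against Prdm16 itself. Its brightest probe gave -0.39, 0.06, -1.09 and -0.88 at 6 weeks and -0.96, -0.18, -0.44 and -0.42 at 11 months, below 0 on 7 of 8 arrays. The fitted values were -0.58 ± 0.15 (adjusted p = 0.0407) and -0.50 ± 0.15 (adjusted p = 0.0373). These calls stood in 10 and 12 of 20 alternative settings, with adjusted p up to 0.231 and 0.352, and the ratios stayed below 0 in all 20. The sources used here do not say whether the probe lies in the deleted segment, so a probe outside it would check nothing. On the arrays 61.2% to 68.2% of 43020 spots were well above background, arrays of one age correlated at 0.487 to 0.675 (6 weeks) and 0.675 to 0.883 (11 months) over all kept probes, and 0 member spots were saturated.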

How the data were processed

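Brown adipose RNA was read on 8 Agilent arrays with Cy3 and Cy5 channels. Scans were quantified with Agilent Feature Extraction (version 10.5.1.1 at 6 weeks, 10.10.1.1 at 11 months), per the file headers, which annotate probes to build mm9. The deposited intensity values are each spot's mean foreground and median local background. The deposited log10 ratio of Cy5 over Cy3 had been background-subtracted and dye-normalized by that software, per the file headers. A deposited value table was read as log2 ratios from its values; the submitters' processing notes name limma and no further step. Its columns correlated with the ratios computed here at 0.88 to 0.978, which sets their direction as knockout over wild type. Column medians were 0.083, 0.0073, -0.04 and -0.041 at 6 weeks and -0.054, -0.045, 0.01 and -0.013 at 11 months; the log base and the centring are unstated. It served as an alternative only.

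Here, normexp background correction (offset 50) and loess within arrays were run in limma 3.58.1 (R 4.3.3), spots the software marked as outliers (between 131 and 247 on an array) were dropped, and spots of one probe were averaged. Of 39429 probes, 26853 were kept: those well above background in 4 or more of the 16 channel measurements and with values on 3 or more arrays at both ages. One model of all 8 arrays had a coefficient per age and a shared dye term (5 residual degrees of freedom); standard errors are moderated. Levels are separate channels after loess and Aquantile; the number of arrays limits the precision. For lists and other genes the brightest kept probe stood for a gene (14810 genes named through RefSeq accessions, 6932 by the array). The model was tested on simulated data.

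The members and the lists (6 of other imprinted genes, 1 of growth and adipogenesis partners, 8 of cell types) were chosen with earlier results of these data known. Named genes were chosen by rule: every member probe; listed imprinted genes that were called, up to 8 with the largest change per age, and 16 fixed ones where measured; up to 6 called partners per age; cell type lists by counts, with a few of their most changed markers; the 2 genes closest in pattern to each called member; Prdm16 and Ucp1. p-values measure the spread between arrays described as biological replicates. Alternatives covered the ratio source, normalization, filters, dye terms, gene summaries, a replicate block, each array left out, and muscle signal.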

Additional observations from a re-analysis of the deposited data

Results flagged for a closer look

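The knockout effect differed between the ages (limma, adjusted p below 0.05 for the 11-month minus the 6-week log2 ratio) for 7 member probes, all higher at 11 months: Plagl1 A_52_P532456 (1.76), A_55_P1961968 (1.69) and A_55_P1961965 (0.42), Dlk1 A_66_P117477 (1.38) and A_55_P2105371 (0.86), and Meg3 A_51_P455997 (0.68) and A_55_P2033407 (0.38). Age, slide and batch cannot be told apart in these differences.

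Among the other imprinted genes named, the difference was higher at 11 months for Slc22a18 (0.83), Grb10 (0.63), Blcap (0.61) and Mirg (0.59). It was lower for Peg12 (-0.96), Gnas (-0.90), Mcts2 (-0.84), Tnfrsf23 (-0.59), Snrpn (-0.52) and H13 (-0.37). Among the growth partners it was higher for Igfbp4 (1.62), Cebpa (1.14) and Ccnd2 (0.80) and lower for Cdkn1a (-1.32). One array stood apart from the other 3 of its age in 1 of 94 groups of 4 examined, for Cdk4, where 6-week array 1 was at -0.69 and the others lay between -0.336 and -0.299; chance flags about 1 in 20.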

How the results depend on the processing

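Of 4, 11 and 7 member probes called at 6 weeks, at 11 months and for the difference between ages, median centring left 1 at 6 weeks and 3 for the difference, and a model without a dye term left 7 at 11 months and 4 for the difference. With genes in place of probes, the brightest probe gave 5 at 11 months and 3 for the difference, and the mean of the kept probes gave 2, 5 and 3, where fewer features were tested. Leaving out each array in turn gave 3 to 5, 7 to 10 and 6 to 11; the lowest at 11 months came without 11-month array 2 and the highest for the difference without 11-month array 3. Without the 3 arrays of largest muscle signal (chosen after seeing the data) the counts were 1 at 6 weeks and 1 for the difference. Calls over all probes tested fell too: from 2567 higher and 1892 lower at 6 weeks to 1244 in all under median centring and 967 without the 3 arrays, and for the difference from 2113 and 2604 to 602 and 756; without a dye term 7452 were called at 11 months and 3002 for the difference. Apart from the fewer features or arrays, the cause was not tested. A fit with the replicate block across the ages gave 4, 10 and 9. The replicate numbers were not taken to pair the arrays. Deviations of same-numbered arrays correlated at -0.19 to -0.06. Of the 4 6-week arrays, 0 correlated best with the 11-month array of the same number. These deviations were not dye-adjusted, and same-numbered arrays had knockout RNA in opposite dyes. The correlations therefore cannot decide whether the numbers pair the arrays. Over 1062 alternative values of member probes, 64 fell short of the threshold where the reported value passed, 17 passed where it had not, and 0 called values turned sign. Signal over background limits Peg10, the second Peg3 probe and the third Mest probe.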
